A study of Mus musculus with 6 samples.

Results

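Integrin subunit genes and the focal adhesion adaptors that couple integrins to actin were examined in injured mouse kidney cortex with and without renal congestion. The set held 38 genes of the 26971 features in the count table. Its members were taken by symbol, and the rule reads no expression value: 26 integrin α and β subunits and 12 adaptors (Ilk, Ptk2, Pxn, Fermt1, Fermt2, Fermt3, Parva, Parvb, Lims1, Bcar1, Tns1 and Zyx). Of the 38, 34 reached 10 or more counts in at least 3 libraries and were tested, among 14398 features that did so. The 26 subunits were split into 4 that are carried mainly by leukocytes (Itgal, Itgam, Itgax and Itgb2), all tested, and 22 others, here called tissue subunits, of which 19 were tested.

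The series profiled kidney cortex RNA from male C57BL/6 mice on day 1 after surgery, in 6 libraries. IRI commonly stands for ischaemia-reperfusion injury, an interruption of renal blood flow followed by its return. The 3 libraries of the IRI group (columns CLK_IRI) came from injured kidneys without congestion, and the 3 of the congested group (columns IVCC_IRI) from injured kidneys with congestion. Every library therefore came from an injured kidney, and an uninjured kidney is not analysed here. The labels expand neither CLK nor IVCC, give no age and carry no other allele or agent. Nothing in them ties the numbers 1 to 3 to separate animals, so each p-value measures the spread among these libraries, which may be technical.

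Integrins are transmembrane receptors built from 1 α and 1 β subunit, and the pairing decides which matrix or cell surface ligand is bound. Talin and the kindlins (Fermt genes) bind the β tail and switch the receptor on, and a complex of ILK, PINCH (Lims1) and parvin, together with FAK (Ptk2), paxillin (Pxn), p130Cas (Bcar1), tensin (Tns1) and zyxin, links it to actin and to signalling. In the kidney, integrins that contain β1 hold tubules and podocytes to their basement membranes, and αvβ6 and αvβ8 release active TGF-β from its latent complex. CCN1, the matricellular protein named in the title of the series, binds αvβ3 and αvβ5 on several cell types, α6β1 on fibroblasts and smooth muscle, αMβ2 on myeloid cells and αIIbβ3 on platelets.

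Library totals lay between 10865860 and 14350425 counts, so 1 CPM (counts scaled to library size by TMM factors) stood for 11.1 to 13.7 counts. All 9 proximal tubule markers were tested, and their summed level was 2418 to 8326 CPM. Libraries numbered 1 stood apart in both groups. Their proximal tubule markers summed to 2919 and 2418 CPM against 6908 to 8326 CPM in the other 4 libraries, and 5 tubular injury markers to 6640 and 4973 CPM against 1359 to 2671 CPM. With bulk tissue, fewer cells of a type and less RNA per cell cannot be told apart.

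Levels between genes were compared as RPKM, the CPM divided by the kilobases of merged exons. Itgb1, the β subunit shared by most matrix receptors, was by far the most abundant subunit, with a mean of 155 RPKM over the 6 libraries and a range of 116 to 254 RPKM. The αv partners β5 and β6 followed, with mean levels of 28.8 RPKM for Itgb5 and 22.9 RPKM for Itgb6. Itgav itself had a mean of 20.8 RPKM, Itgb8 17.03, and the laminin-binding subunits Itga6 and Itga3 16.2 and 12.3 RPKM. From Itgb5 to Itga3 the ranges of neighbours in this order overlapped, whereas Itga3 (9.28 to 15.5 RPKM) lay below Itgb5 (23.7 to 34.4 RPKM) in every library. Itga1, a collagen receptor subunit, had a mean of 6.67 RPKM, and every other tested tissue subunit was under 3 RPKM.

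The leukocyte subunits were scarce, at mean levels of 1.67 RPKM for Itgb2, 0.507 for Itgax, 0.400 for Itgam and 0.293 RPKM for Itgal. The level of Itgam is uncertain, because 68.7% of its exon bases are shared with a second annotated gene on the same strand. Among the adaptors, Tns1 had the highest level, with a mean of 57.2 RPKM, and Fermt3, the kindlin of blood cells, the lowest of those tested, at 0.385 RPKM. Fermt2 and Parva, the forms found in most tissues, had means of 20.1 and 19.4 RPKM. Merged exons run longer than the transcripts in use for genes with many annotated isoforms, so these values understate such genes.

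**Figure D1:**
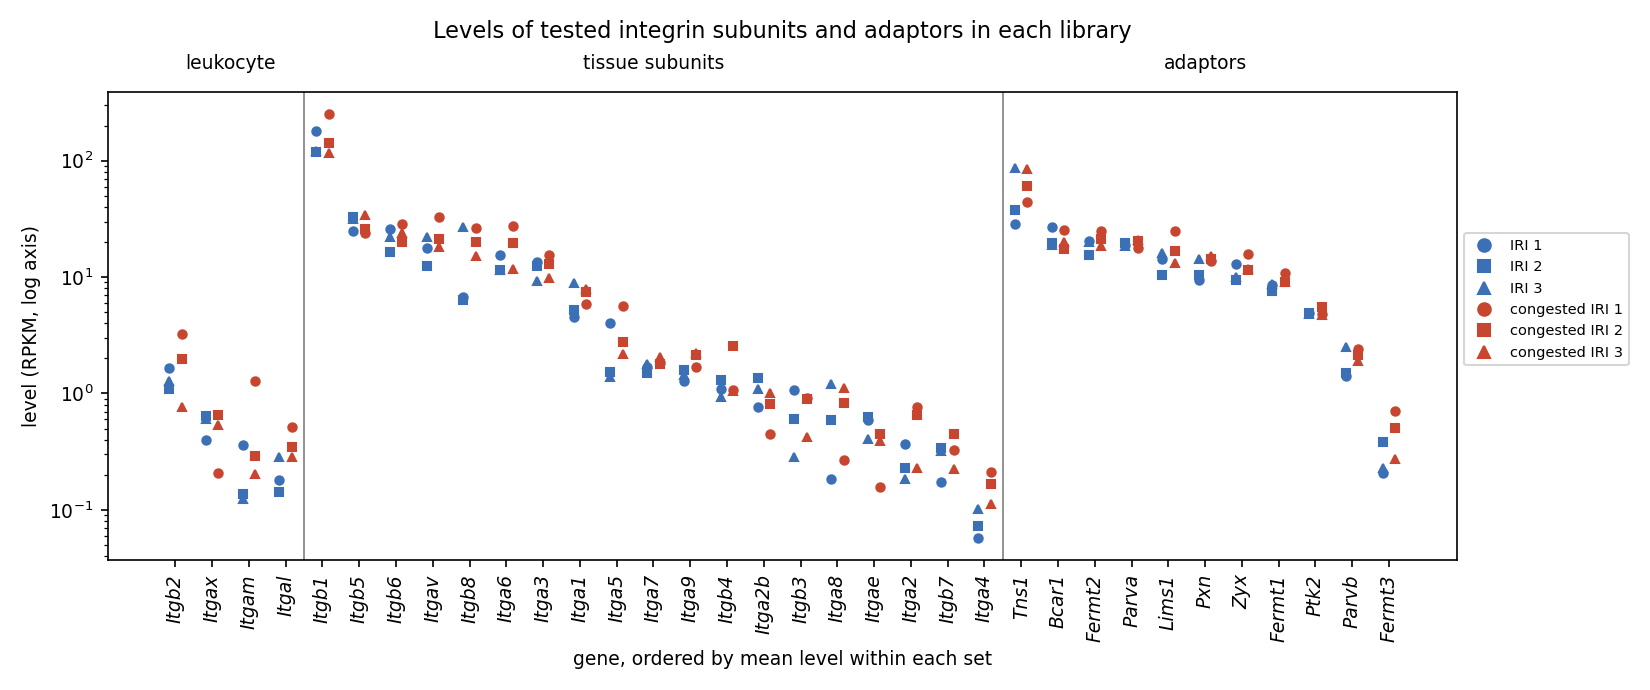
Level of each tested member in RPKM (log axis) by gene, ordered by mean within the leukocyte subunits, tissue subunits and adaptors; blue points are IRI and red points congested IRI libraries, and the marker shape gives the replicate number. Itgb1 lies above all other members at 116 to 254 RPKM, and the leukocyte subunits lie below 4 RPKM.

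The 4 members that were not tested held few reads. Itga10 and Itga11, both collagen receptor subunits, held 2 to 9 and 0 to 3 counts per library, and Itgad, a further β2 partner, held 0 to 2. Ilk held 3, 0 and 0 counts in the IRI libraries and 3, 1 and 1 in the congested libraries. Of the 2744 merged exon bases of Ilk, on chromosome 7 from 105736592 to 105742925 of GRCm38, 89.7% lie opposite exons of Taf10 and Rrp8 on the other strand. How the counting treated strand is not given in the sources used for this text, and the count of Ilk says nothing of its level.

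In edgeR over all 6 libraries, members passed the adjusted threshold between replicate numbers and not between the groups. In all, 4 of 34 tested members passed edgeR's joint test of replicate number at an adjusted p under 0.05: 1 leukocyte subunit, 2 tissue subunits and 1 adaptor. Over all genes tested 7.94% passed, 1143 of 14398, so differing between replicate numbers was not particular to the members. Itga5, which forms the classical fibronectin receptor with β1, held 19.7, 7.60 and 6.89 CPM in IRI libraries 1, 2 and 3 and 28.0, 13.6 and 10.8 CPM in the congested libraries. Both libraries numbered 1 were above the other 4 (edgeR adjusted p = 0.0189). Itgam, the αM chain of neutrophils and macrophages, held 1.83, 0.683 and 0.618 CPM in the IRI and 6.46, 1.47 and 1.02 CPM in the congested libraries. Here too the libraries numbered 1 were the highest (edgeR adjusted p = 0.0323).

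Itga8, the mesangial and pericyte subunit that binds nephronectin, ran the other way. It held 1.35, 4.35 and 8.83 CPM in IRI libraries 1, 2 and 3 and 1.97, 6.08 and 8.24 CPM in the congested libraries, so that both libraries numbered 1 were lowest (edgeR adjusted p = 0.0166). Tns1, which joins β tails to actin in mature adhesions, held 460, 607 and 1378 CPM in the IRI and 706, 970 and 1370 CPM in the congested libraries (edgeR adjusted p = 0.0466). The libraries numbered 3 stood above the other 4. The next adaptors by p were Bcar1, at 124, 88.5 and 85.2 CPM in the IRI and 117, 79.3 and 90.4 CPM in the congested libraries, and Zyx, at 69.9, 50.9 and 54.2 against 84.9, 62.2 and 63.8 CPM. Neither passed, with edgeR adjusted p-values of 0.248 and 0.307.

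With both libraries numbered 1 left out, 139 genes and 0 members differed between the numbers 2 and 3. The edgeR adjusted p was then 0.999 for Itga5, 0.99 for Itga8 and 0.479 for Tns1, and Itgam no longer reached the count minimum. All 5 tested neutrophil markers, 5 of 5 tubular injury markers and 7 of 9 proximal tubule markers also passed the test of replicate number. Their part in the 4 members' values was not tested.

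**Figure D2:**
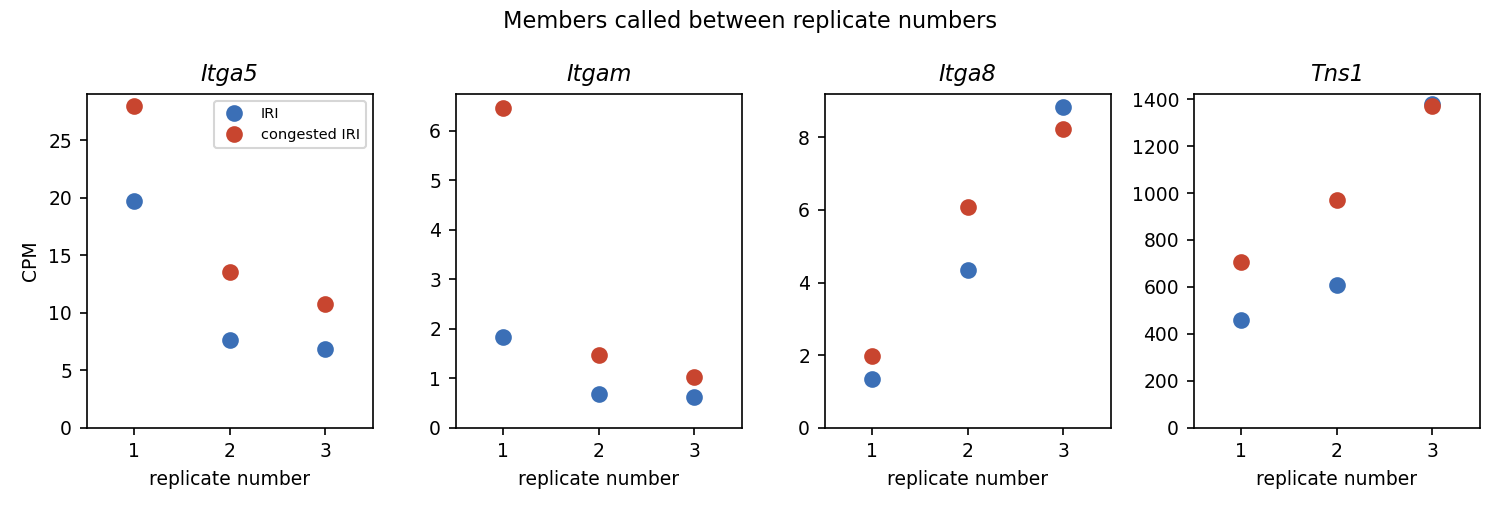
CPM of the 4 members that differed between replicate numbers, by replicate number, with IRI libraries in blue and congested IRI libraries in red. Itga5 and Itgam are highest and Itga8 lowest in the libraries numbered 1, and Tns1 is highest in those numbered 3, at 1378 and 1370 CPM.

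The promoters of the 3 subunits among these 4 are shown because the genes that were highest and the gene that was lowest in the libraries numbered 1 can be set side by side. Each run is the 250 bases before the RefSeq start on GRCm38.p6, written 5′ to 3′ on the strand of the gene. They lie at chr15:103366792-103367041 on the minus strand for Itga5, chr2:12301945-12302194 on the minus strand for Itga8 and chr7:128062390-128062639 on the plus strand for Itgam. Capitals mark every match, on either strand, to GAGGAA, the core bound by the myeloid factor PU.1, and to GGGCGG, the GC box bound by Sp factors.
Itga5: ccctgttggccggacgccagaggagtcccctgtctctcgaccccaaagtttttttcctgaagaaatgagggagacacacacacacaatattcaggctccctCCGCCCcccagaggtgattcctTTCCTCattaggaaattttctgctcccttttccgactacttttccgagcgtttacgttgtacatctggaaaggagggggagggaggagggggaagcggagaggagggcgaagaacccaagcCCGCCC
Itgam: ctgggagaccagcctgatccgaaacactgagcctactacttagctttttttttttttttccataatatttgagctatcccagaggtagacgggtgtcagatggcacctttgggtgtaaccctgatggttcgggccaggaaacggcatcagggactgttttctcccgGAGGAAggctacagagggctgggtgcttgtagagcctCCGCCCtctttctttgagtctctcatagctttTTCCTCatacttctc
Itga8: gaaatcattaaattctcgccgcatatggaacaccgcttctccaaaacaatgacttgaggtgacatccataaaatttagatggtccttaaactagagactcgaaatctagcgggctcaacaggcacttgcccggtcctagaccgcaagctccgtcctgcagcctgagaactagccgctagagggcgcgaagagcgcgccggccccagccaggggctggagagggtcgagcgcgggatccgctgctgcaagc

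GAGGAA occurred 2 times in the Itgam window, 84 and 15 bases before the start, 1 time in that of Itga5, 127 bases before it, and 0 times in that of Itga8. Of 32851 promoter windows of the same length, 23.3% held it. GGGCGG occurred 2 times for Itga5, 1 time for Itgam and 0 times for Itga8, and 32.7% of the windows held it. Neither GGAATG (TEAD; in 12.6% of windows), TGANTCA (AP-1; 6.75%) nor the CArG box of serum response factor (1.47%) occurred in the 3 windows. The searched motifs do not overlap one another in these windows, and a match is a description of letters only.

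Between congested and non-congested IRI kidney, members leaned upward in the congested libraries, and no member passed the threshold. Without the replicate number in the model, edgeR called 0 of 14398 genes, which is 0%, at an adjusted p under 0.05, and the smallest adjusted p of any member was 0.935. With the replicate number as a block it also called 0%, and the smallest adjusted p of a member was 0.578. DESeq2 and limma-voom without the block and limma-voom with it called 0 genes, and DESeq2 with the block called 8 (0.0556%), none of them a member. Of the 34 members, 29 had a log2 fold change above 0 against 49.7% of all genes, with a median of 0.27 against -0.004. Log2 fold changes below are without the block unless named otherwise, ± their standard error (SE). The median was 0.75 for the leukocyte subunits, 0.28 for the tissue subunits and 0.24 for the adaptors. Markers of some other cell types leaned up or down too. The 4 smooth muscle markers were all above 0 with a median of 0.55, and 1 of them had groups that did not overlap. Their sum was 40.8 to 81.4 CPM in IRI and 122 to 152 CPM in congested libraries. All 6 distal and collecting duct markers were below 0, with a median of -0.49. They summed to 867 to 1787 CPM in IRI and 420.4 to 1262 CPM in congested libraries. The groups overlapped for this sum and for each of the 6 markers. None of these markers passed the adjusted threshold, and their part in the members' values was not tested.

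At an unadjusted p under 0.05, 1 member was higher without the block (Itga4; 0.979% of all genes higher, 1.02% lower) and 7 with it (Itga5, Itga2, Itga4, Itga6, Itgam, Itgal and Itga9; 4.06% of all genes higher, 2.99% lower). No member was lower in either fit. In 5 members (Itga7, Itga4, Fermt1, Itgal and Itga9) every congested library lay above every IRI library, against 3.38% of all genes, and in 0 members every one lay below, against 3.1%. Within all 3 replicate numbers the congested library was higher for 14 members and lower for 2 (Itgae and Itga2b), against 13.1% of all genes higher and 13.1% lower.

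**Figure D3:**
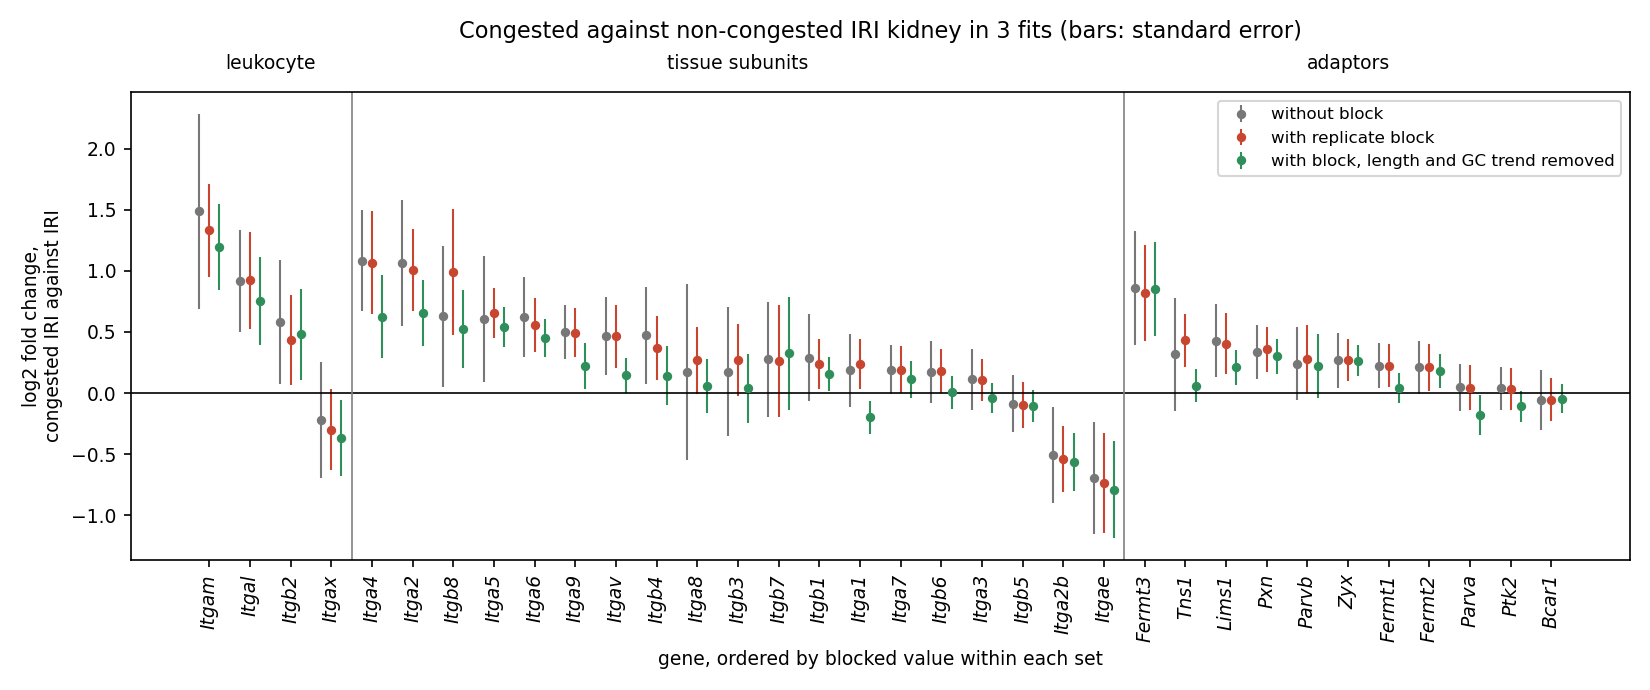
Log2 fold change of congested against non-congested IRI kidney for each tested member in edgeR without the replicate block (grey), with it (red) and with it after a length and GC trend was removed (green); bars are standard errors. Most points lie above 0, and none passed the adjusted threshold.

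Among the leukocyte subunits, 3 of 4 had a log2 fold change above 0, and congested library 1 set the size of the largest. Itgam, given above library by library, averaged 1.04 ± 0.680 CPM (SD, n = 3) over the IRI libraries and 2.98 ± 3.02 CPM (SD, n = 3) over the congested ones. Its log2 fold change was 1.49 ± 0.80 (SE). Congested library 1 alone exceeded the highest IRI library. Without that library the log2 fold change was 0.23, and without IRI library 1 it was 2.17. Within replicate numbers the congested library was the higher of the pair in all 3, by 1.73, 0.94 and 0.60 on the log2 scale, and with the replicate block the log2 fold change was 1.33 ± 0.38 (SE). The exons of Itgam, on chromosome 7 from 128062640 to 128118491, share 68.7% of their bases with a second annotated gene on the same strand, Gm49368, so its count is uncertain.

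Itgal, the αL chain by which leukocytes bind ICAM-1, held 1.19, 0.939 and 1.85 CPM in the IRI libraries and 3.41, 2.27 and 1.88 CPM in the congested libraries. The groups did not overlap, although IRI library 3 and congested library 3 differed by 0.02 on the log2 scale. Its log2 fold change was 0.92 ± 0.42 (SE). Itgb2, the common β chain of the leukocyte integrins, held 5.01, 3.33 and 3.89 CPM in the IRI and 9.96, 6.08 and 2.35 CPM in the congested libraries. Congested libraries 1 and 2 were above all IRI libraries and congested library 3 below them, and the log2 fold change was 0.58 ± 0.51 (SE).

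Itgax, the αX chain of dendritic cells and macrophages, held 1.91, 3.07 and 2.92 CPM in the IRI and 0.987, 3.15 and 2.59 CPM in the congested libraries. Congested library 1, the highest library for the other 3 leukocyte subunits, was the lowest here. The log2 fold change was -0.22 ± 0.48 (SE), and it was 0.12 without that library. The median of the 4 subunits was 0.18 without congested library 1 and 0.59 to 1.03 with any other single library left out.

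Several lists of leukocyte marker genes lay above 0 beside these subunits. The summed level of 10 neutrophil markers in the table was 75.3, 9.05 and 5.12 CPM in the IRI libraries and 226, 16.6 and 8.16 CPM in the congested libraries, and all 5 tested markers were above 0 with a median log2 fold change of 1.74. The lead neutrophil markers by p were S100a8, Csf3r and Mmp9, with log2 fold changes of 1.52, 2.30 and 2.10, of which S100a8 encodes a calgranulin and Csf3r the G-CSF receptor. Monocyte and macrophage markers were above 0 for 11 of 13 (median 0.29), and general leukocyte markers for 5 of 5 (median 0.48). The former summed to 217, 164 and 194 CPM in the IRI and 453, 187 and 185 CPM in the congested libraries. Only congested library 1 exceeded the IRI libraries for that sum. The general leukocyte markers summed to 32.7, 31.3 and 21.02 CPM in the IRI and 85.7, 36.5 and 26.1 CPM in the congested libraries. Of 10 lymphocyte markers 1 was tested, Cd8a, which lay the other way at a log2 fold change of -0.42, and the defining T cell gene Cd3e held at most 0.0883 CPM. No marker passed the adjusted threshold between the groups, and the part of leukocyte numbers in the subunits' values was not tested.

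**Figure D4:**
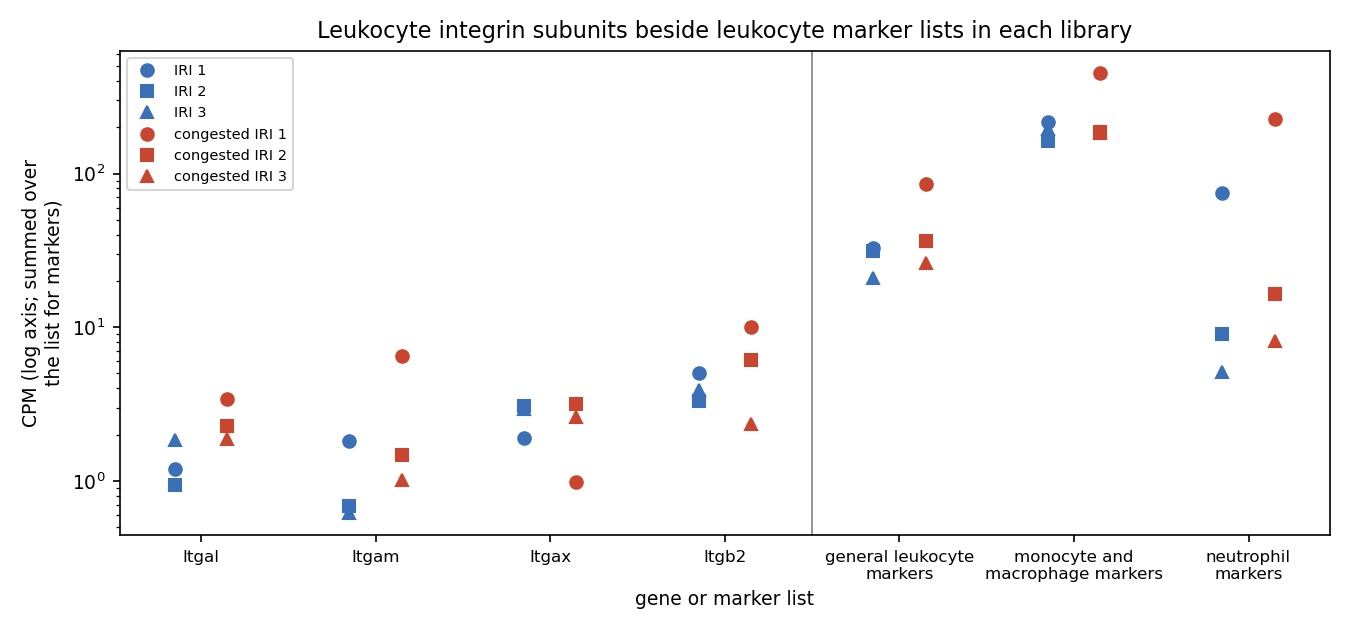
CPM (log axis) of the 4 leukocyte integrin subunits beside the summed CPM of 3 leukocyte marker lists, with IRI libraries in blue, congested IRI libraries in red and the replicate number by marker shape. Congested library 1 is the highest library for Itgal, Itgam, Itgb2 and all 3 lists, and the lowest for Itgax.

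Of the 8 subunits that build the known CCN1 receptors, 6 had a log2 fold change above 0, with a median of 0.38. With the length and GC trend described below removed, the median was 0.18 without and 0.15 with the block. Their median difference within replicate numbers 1, 2 and 3 was 0.67, 0.65 and -0.004. Itgav, the α chain of the vitronectin and TGF-β activating receptors, held 192, 134 and 236 CPM in the IRI libraries and 354, 229 and 194 CPM in the congested libraries. The congested library was higher in the numbers 1 and 2 and lower in number 3, the groups overlapped, and the log2 fold change was 0.47 ± 0.32 (SE). For Itgav it was 0.17 with that trend removed, also without the block. Its partner Itgb3 held 6.36, 3.58 and 1.68 CPM in the IRI and 5.38, 5.27 and 2.51 CPM in the congested libraries. Its log2 fold change of 0.18 ± 0.53 (SE) had no stable sign: it was -0.18 without IRI library 3 and -0.12 once the trend in length and GC content described below was taken out.

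Itgb5, a further partner of αv, held 87.7, 118 and 111 CPM in the IRI and 84.3, 91.3 and 122 CPM in the congested libraries. Its log2 fold change was -0.09 ± 0.23 (SE), and 0.01 when libraries were scaled by total counts. Itga6, the α chain of the laminin receptors of tubular epithelium, held 138, 104 and 104 CPM in the IRI and 249, 177 and 107 CPM in the congested libraries. Congested libraries 1 and 2 were above all IRI libraries, and the log2 fold change was 0.62 ± 0.33 (SE). Without the block it had an unadjusted p of 0.096 in edgeR, and with it 0.0345.

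Itgb1 held 738, 482 and 490.4 CPM in the IRI and 1035, 582 and 474 CPM in the congested libraries. Both libraries numbered 1 were highest, and the congested library was the higher of its number in 2 of 3. The log2 fold change was 0.29 ± 0.36 (SE), and -0.12 without congested library 1. Itga2b, the αIIb chain of platelets and megakaryocytes, held 4.21, 7.43 and 5.92 CPM in the IRI and 2.42, 4.39 and 5.49 CPM in the congested libraries. It was lower in the congested library of every number, the groups overlapped, and the log2 fold change was -0.51 ± 0.39 (SE). Of 8 platelet markers only Pf4 was tested, at up to 1.53 CPM and with a log2 fold change of 0.81, opposite in sign to that of Itga2b, and Gp9, Gp5 and Gp6, which define platelets, held at most 0.157, 0.0795 and 0.235 CPM. Ccn1, the ligand, was named outside the naming rule because it gives this list its name. It held 284, 58.6 and 37.0 CPM in the IRI and 214, 126 and 88.3 CPM in the congested libraries.

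Among the other tissue subunits, the largest difference was that of Itga4, the α chain by which leukocytes bind VCAM-1 and fibronectin. Itga4 held 0.795, 1.02 and 1.41 CPM in the IRI and 2.96, 2.34 and 1.57 CPM in the congested libraries, from 10 to 33 counts per library. The groups did not overlap, and the log2 fold change was 1.08 ± 0.41 (SE). Although counted among the tissue subunits by the rule, Itga4 is carried by lymphocytes and monocytes, and its highest library, congested 1, was also that of the general leukocyte markers. The summed lymphocyte markers were highest in IRI library 2, at 4.70 CPM, and held 1.08 CPM in congested library 1. The part of leukocyte numbers in the values of Itga4 was not tested. Itga2, the epithelial and platelet collagen receptor chain, held 2.62, 1.62 and 1.32 CPM in the IRI and 5.47, 4.61 and 1.65 CPM in the congested libraries. Congested libraries 1 and 2 were above all IRI libraries, and the log2 fold change was 1.07 ± 0.52 (SE).

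Itga5, given above by library, had a log2 fold change of 0.61 ± 0.52 (SE). Its congested library was higher in all 3 numbers, by 0.50, 0.82 and 0.63 on the log2 scale, whereas the groups overlapped. With the replicate block the log2 fold change was 0.66 ± 0.20 (SE), and without IRI library 1 and without the block it was 1.27. Itga9, a tenascin-C and VCAM-1 receptor chain of smooth muscle and epithelium, held 9.77, 12.1 and 11.04 CPM in the IRI and 12.9, 16.3 and 17.3 CPM in the congested libraries. The groups did not overlap, and the log2 fold change was 0.50 ± 0.22 (SE).

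Itga7, the laminin receptor chain of muscle, held 13.8, 12.04 and 14.4 CPM in the IRI and 14.8, 14.5 and 16.6 CPM in the congested libraries. These groups did not overlap either, by a margin of 14.4 against 14.5 CPM, and the log2 fold change was 0.19 ± 0.20 (SE). Itga8 had a log2 fold change of 0.17 ± 0.72 (SE).

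Itgb8, an αv partner that activates TGF-β as Itgb6 does, was singled out after its values were seen. It held 73.9, 70.4 and 300 CPM in the IRI libraries and 294, 223 and 169 CPM in the congested libraries. The congested library was higher by 1.99 and 1.66 on the log2 scale in the numbers 1 and 2 and lower by -0.83 in number 3, where the IRI library was the highest of all 6. The log2 fold change was 0.63 ± 0.58 (SE) without and 0.99 ± 0.51 (SE) with the replicate block, at an edgeR adjusted p of 0.935 and 0.578. The remaining tested tissue subunits (Itga1, Itga3, Itgae, Itgb4, Itgb6 and Itgb7) had log2 fold changes from -0.69 for Itgae, the E-cadherin receptor chain of intraepithelial lymphocytes, to 0.47 for Itgb4, the hemidesmosome subunit.

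Read by ligand class, both tested collagen-binding α chains (median 0.63) and all 4 laminin-binding subunits (median 0.33) were above 0. So were 3 of 4 RGD-binding α chains (median 0.32) and 4 of 5 β partners of αv (median 0.18). With the length and GC trend removed, also without the block, the 4 class medians were 0.245, 0.14, 0.11 and -0.001, and no member of any class passed the adjusted threshold.

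Of the 11 tested adaptors, 10 had a log2 fold change above 0, and 9 of those 10 were at 0.43 or less. Fermt1, the epithelial kindlin, held 48.7, 43.4 and 49.4 CPM in the IRI and 61.2, 52.1 and 52.0 CPM in the congested libraries. The groups did not overlap, and the log2 fold change was 0.23 ± 0.18 (SE). Tns1 and Zyx, given above by library, had log2 fold changes of 0.32 ± 0.46 (SE) and 0.27 ± 0.22 (SE), and Bcar1 one of -0.06 ± 0.25 (SE). The largest adaptor difference was that of Fermt3, the kindlin of leukocytes and platelets, at 0.86 ± 0.47 (SE). The other 6 (Ptk2, Pxn, Fermt2, Parva, Parvb and Lims1) ranged from 0.04 for Ptk2, the focal adhesion kinase, to 0.43 for Lims1.

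The members' upward lean was unequal between replicate numbers. The median difference of the 34 members between the congested and the IRI library of 1 number was 0.44 in number 1, 0.46 in number 2 and 0.06 in number 3 on the log2 CPM scale. For the leukocyte subunits it was 1.18, 0.89 and -0.07, for the tissue subunits 0.40, 0.47 and 0.07, and for the adaptors 0.33, 0.38 and 0.08. The members' share of all counts was 0.252%, 0.248% and 0.397% in IRI libraries 1, 2 and 3 and 0.402%, 0.374% and 0.390% in the congested libraries. Only IRI libraries 1 and 2 lay below 0.37%. Tns1 weighed heavily in this share. It alone held 5782 of 36118, 7106 of 29733 and 15607 of 43180 member counts in IRI libraries 1, 2 and 3. In the congested libraries it held 7863 of 45783, 13240 of 48020 and 17466 of 46685.

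These same differences followed transcript length over all genes. Integrin and adaptor transcripts are long, with a median of 4547 bases over the tested members against 3273 bases over all tested genes that had a length. In 5 length classes of near-equal size, the median difference of all genes went from -0.50 in the shortest to 0.47 in the longest in number 1, from -0.51 to 0.53 in number 2, and from 0.12 to -0.12 in number 3. No member lay in the shortest class and 13 lay in the longest. With the replicate block, the class medians were -0.30, -0.12, 0.004, 0.13 and 0.30.

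Set against the median of their own length class in the fit with the replicate block, 22 of 34 members were higher, by a median of 0.15. That held for 3 of 4 leukocyte subunits (median 0.53 above their class), 12 of 19 tissue subunits (0.07) and 7 of 11 adaptors (0.21). Removing a trend in length and GC content from each library left 25 of 34 members above 0 with the block, against 45.9% of all genes. The median was then 0.62 for the leukocyte subunits, 0.14 for the tissue subunits and 0.18 for the adaptors. At an unadjusted p under 0.05 in that fit, 4 members were higher (Itga5, Itga2, Itga6 and Itgam), against 3.86% of all genes. Itga2b was lower there (edgeR unadjusted p = 0.045), and the share of all genes lower in that fit was not counted. Itga1 went from 0.24 to -0.20 with the trend removed, while Itgam went from 1.33 to 1.19 and Fermt3 from 0.82 to 0.85. Several other members lost more than Itgam did. Itga4 went from 1.07 to 0.625, Itgb8 from 0.99 to 0.52 and Itga9 from 0.49 to 0.22. Itgav went from 0.46 to 0.15 and Fermt1 from 0.22 to 0.04. Why the difference follows length was not tested.

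**Figure D5:**
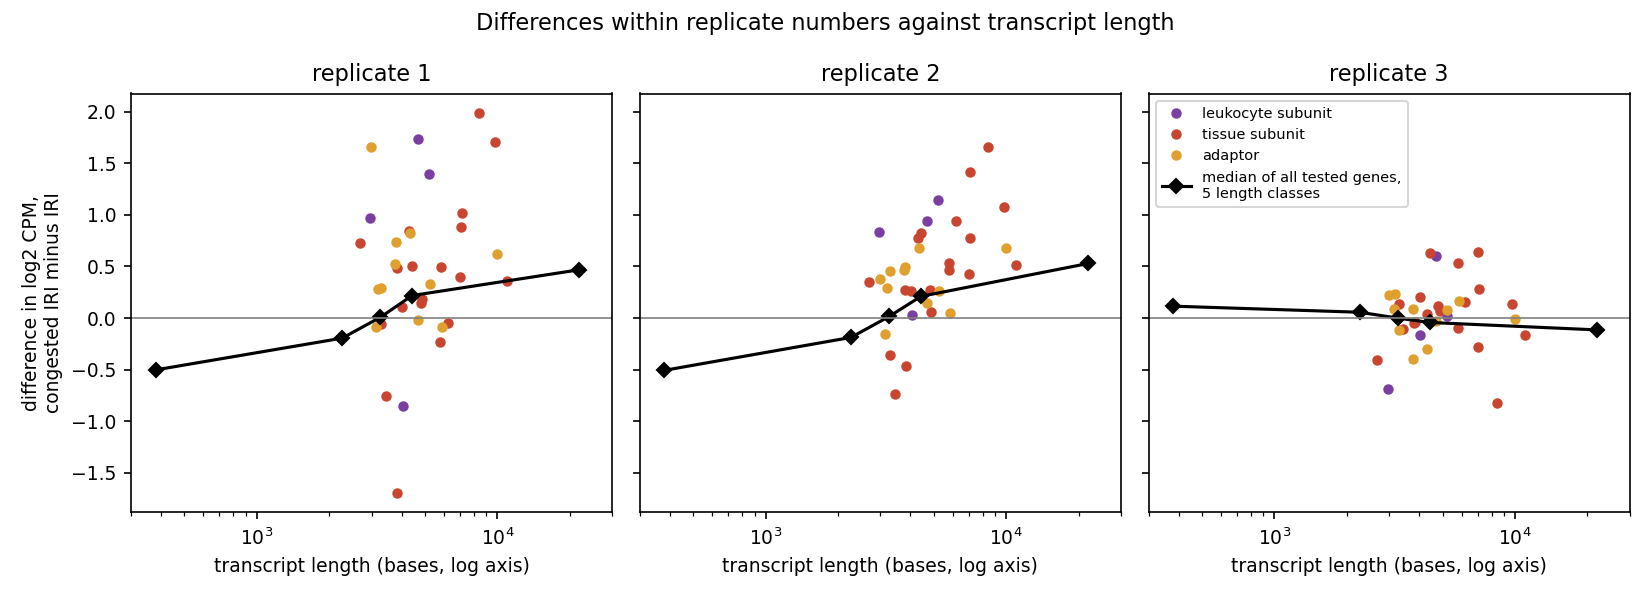
Difference in log2 CPM between the congested and the IRI library of the same replicate number against transcript length (log axis), 1 panel per number; coloured points are members, and black diamonds are medians of all tested genes in 5 length classes, placed at the geometric middle of each class. The medians climb with length in the numbers 1 and 2, from -0.50 to 0.47 and from -0.51 to 0.53, and fall from 0.12 to -0.12 in number 3.

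The number of genes that passed depended on replicate number 3. With both of its libraries left out, edgeR with the replicate block called 5300 of 13856 genes from 4 libraries, 19.8% of genes higher and 18.4% lower. Of the members, 16 were then higher (Itgb2, Itga5, Itga2, Lims1, Parvb, Itgb8, Itgb1, Itga4, Itgav, Itga6, Pxn, Itgam, Itgal, Fermt2, Itga1 and Tns1) and 1, Itga2b, was lower. With the length and GC trend also removed, 5.47% of genes were higher and 8.67% lower, and the members called were Itgb2, Itgb8, Itga6 and Pxn, higher, and Parva, lower. Leaving out number 1 or number 2 in the same way called 8 and 7 genes and no member. Across 14398 genes the differences of numbers 1 and 2 correlated at 0.58, whereas those of 1 and 3 and of 2 and 3 correlated at -0.20 and -0.17. The fit of 4 libraries has a single residual degree of freedom, and the version with the trend removed was added after the data were seen.

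Genes for integrin ligands leaned the same way as the receptors. Of 29 tested ligand genes, 24 had a log2 fold change above 0, against 49.7% of all genes, with a median of 0.28, and 0 passed the adjusted threshold. Ligand transcripts are long too, with a median of 5564 bases. With the length and GC trend removed, the median log2 fold change was 0.14 without and 0.17 with the block. At an unadjusted p under 0.05, 4 of the 29 were higher without the block and 9 with it, against 0.979% and 4.06% of all genes. At an adjusted p under 0.05, 10 differed between replicate numbers, against 7.94% of all genes. Thbs1, the matricellular ligand thrombospondin-1, held 75.2, 56.1 and 72.7 CPM in the IRI and 141, 92.9 and 111 CPM in the congested libraries, with no overlap and a log2 fold change of 0.76 ± 0.24 (SE). Nid1, the basement membrane linker nidogen-1, held 32.3, 29.96 and 36.5 CPM in the IRI and 67.2, 50.7 and 50.5 CPM in the congested libraries. Its groups did not overlap either, and the log2 fold change was 0.77 ± 0.21 (SE).

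Tnc, the gene of tenascin-C, a ligand of α9β1 that appears in injured matrix, held 28.1, 12.8 and 3.45 CPM in the IRI and 49.2, 22.5 and 10.4 CPM in the congested libraries. It was higher in the congested library of each number, whereas the groups overlapped. The log2 fold change was 0.89 ± 0.77 (SE) without and 1.03 ± 0.23 (SE) with the replicate block, and without the block it was 0.14 when congested library 1 and 1.75 when IRI library 1 was left out.

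Of 41 further adhesion genes (talins, α-actinins, other tensins, Src-family and scaffold genes), all tested, 34 had a log2 fold change above 0, with a median of 0.18. That median was 0.12 with the length and GC trend removed, also without the block. Flna, which encodes filamin A, an actin crosslinker that binds β tails and competes there with talin, held 128, 97.2 and 83.9 CPM in the IRI and 256, 186 and 168 CPM in the congested libraries. The groups did not overlap. Its log2 fold change was 0.98 ± 0.26 (SE) in edgeR (adjusted p = 0.935), and 0.60 with the length and GC trend removed. DESeq2 with the replicate block called it at an adjusted p of 0.0191. Vcl, the gene of vinculin, held 12.6, 21.6 and 33.9 CPM in the IRI and 42.5, 39.0 and 39.9 CPM in the congested libraries, a log2 fold change of 0.84 ± 0.34 (SE). Actn1, an α-actinin gene, held 66.3, 46.6 and 51.5 CPM in the IRI and 100.2, 67.6 and 72.0 CPM in the congested libraries, a log2 fold change of 0.55 ± 0.24 (SE). Neither gene overlapped between the groups, and neither passed the adjusted threshold over all 6 libraries in edgeR or DESeq2. Without replicate number 3, edgeR with the block called Vcl (adjusted p = 0.00154), Actn1 (0.00159), Flna, Thbs1, Nid1 and Tnc. All of these but Tnc were still called with the length and GC trend removed. Those fits called 38.3% of all genes, and 14.1% with the trend removed. The named genes were picked by their p in the same libraries, so these calls add no separate support.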

How the data were processed

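RNA was measured in 6 kidney cortex libraries, 3 per group, grouped by their labels. The values as deposited are raw counts, whole numbers per gene without normalization. The tools, per the submitters' processing notes, were STAR 2.7.10a, featureCounts and Subread, with the build GRCm38. The library kit keeps strand, per the labels' protocols, while the sources used do not name the annotation or how strand was treated in counting; overlapping genes may share or lose reads.

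Features with 10 or more counts in at least 3 libraries entered edgeR 4.0.16 under R 4.3.3 (TMM factors, robust quasi-likelihood F test, two-sided, group as the only term, Benjamini-Hochberg adjustment over 14398 features, threshold 0.05). DESeq2 1.42.0 and limma-voom (limma 3.58.1) were alternatives. A standard error is the log2 fold change divided by the root of F. Log2 CPM used a prior count of 2. For the trend-removed fits, a smooth of each library's log2 CPM deviations on transcript length and GC was taken out as an offset (mgcv 1.9.3, basis 6). Lengths, exons and positions came from GENCODE for GRCm38 and matched 95.6% of tested genes and all 34 tested members. Promoters came from RefSeq (GRCm38.p6), where 27 of 38 members matched.

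The labels number the libraries 1 to 3 in both groups and do not say what a number shares. Libraries of the same number deviated together from their group means, with correlations over genes of 0.719, 0.342 and 0.427, each above 0.1, so the number was also fitted as a replicate block. IRI library 2 with congested library 3 gave 0.395 and IRI library 3 with congested library 2 gave 0.242, so only number 1 is matched by the data alone. Libraries within a group were further apart than sampling noise allows (chi-square per degree of freedom 18.8 to 194).

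The set of symbols and the gene lists were proposed with earlier results of these data known, although the rule itself reads no value. The naming rule took the leukocyte and CCN1 receptor subunits, members with an unadjusted p under 0.05 in either fit or with groups that do not overlap, the 3 subunits and 3 adaptors with the smallest p for replicate number, and up to 3 genes of each other list. Tested on simulated data with planted changes, edgeR recovered 12% of 2-fold and 71% of 4-fold changes without the block and 42% and 94% with it. Unchanged genes made up 10 of 93 calls without the block and 12 of 148 with it. The simulated data held no group difference that follows transcript length.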

Additional observations from a re-analysis of the deposited data

How the results depend on the processing

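Other scaling (RLE, upper-quartile, total counts), other filters on low counts, a fit without robust dispersion, DESeq2, limma-voom, the replicate block, the length and GC trend removed and each library left out in turn gave 0 genes and 0 members between the groups. The exceptions were DESeq2 with the replicate block, with 8 genes, and fits without both libraries of a number, which gave 0 to 5300 genes and 0 to 17 members (1960 genes and 5 members without number 3 after the trend was removed). These last fits rest on 4 libraries. Beside Flna in DESeq2, the replicate block changed no call of a named gene.

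Members higher at an unadjusted p under 0.05 numbered 4 with total counts, 2 with no filter, 7 with the replicate block, 4 with DESeq2 and the block, 6 with limma-voom and the block, 0 with the trend removed and 4 with both block and trend removal, and 0 to 20 when libraries were left out. Members lower numbered 1 (Itga2b) with block and trend removal and 0 to 4 when libraries were left out. The median over leukocyte subunits was 0.117 to 1.166 and that over adaptors 0.053 to 0.374 when libraries were left out.

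Among the subunits named library by library, signs that turned, given with the range over fits that leave libraries out, were those of Itgax (-0.562 to 0.123, the latter without congested library 1), Itgb1 (-0.118, without that library, to 0.526), Itgb5 (0.01 with total counts; -0.266 to 0.04) and Itgb3 (-0.118 with the trend removed; -0.182, without IRI library 3, to 0.738). Itga9 ranged from 0, without number 3 after trend removal, to 0.609. Among other members, removing the trend without the block also turned the sign of Itga1 (-0.18), Itga3 (-0.05), Itgb6 (-0.001), Parva (-0.19) and Ptk2 (-0.11). The cause was not tested.

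Genes that differed between replicate numbers were 1854 by a DESeq2 likelihood ratio test and 139, 1774 and 4915 without numbers 1, 2 and 3, with 0 to 15 members. In all, 718 of 789 alternative values over 36 results were rated the same as the main value, by rules that differed between kinds of result. A count had to stay near the main count, and a list median within the spread of its replicate-number medians. Only single genes were rated by direction or side of the threshold. The median of all genes was -0.004 with TMM and 0.095 with total counts, so low fold changes near 0 carry that uncertainty. Depth limits members near 1 CPM, which rest on 11.1 to 13.7 counts per library; Itgb7 and Itga4 are among them, as are Itgam and Itgal.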
